A study of Homo sapiens with 12 samples.

Results

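HepG2 is an established human hepatoma cell line that still makes many of the secreted proteins of the liver. The cells described here stably expressed control shRNAs (CTL), short hairpin RNAs that serve as the reference for a line with a double knock-down (DKD) of the histone variants macroH2A1 and macroH2A2. All genes were compared between 3 control libraries treated with 20 ng/mL of TNFα for 24 hours and 3 untreated control libraries, 6 of the 12 libraries of the study. The untreated cells received the same volume of vehicle, and both groups were kept overnight in 0.5% serum before treatment. The shRNA cassettes were brought in by a retroviral vector. The labels do not say whether the control line was a pool or a clone. They also name no separate cultures behind libraries 1 to 3, so each p-value reflects only how these libraries vary, and that variation may be technical.

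TNFα is an inflammatory cytokine that binds 2 receptors on the cell surface. Its main receptor recruits adaptors and ubiquitin ligases, which activate the IκB kinases. These mark the inhibitor IκBα for degradation and free NF-κB, a family of paired transcription factors that enter the nucleus and bind κB sites in DNA. Many NF-κB targets encode proteins that end the response or that keep the cell alive. In the liver the cytokine takes part in the acute-phase response, in which the set of plasma proteins that hepatocytes secrete is changed.

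The start regions of 5 genes that rose are shown because they carry the matches that the later counts of promoters rest on. Each runs from 250 bases before to 50 bases after the start of the gene, from RefSeq, build GRCh38.p14, read 5′ to 3′ on the strand of the gene. Capitals mark matches on either strand to the kB consensus, a degenerate form of the NF-κB site, or to the core of sites for interferon regulatory factors (IRF core, GAAANNGAA). UBD lies at chr6:29559683-29559982 on the minus strand, with a kB match at -53. BIRC3 lies at chr11:102317234-102317533 on the plus strand, with kB matches at -199 and -135. NFKBIA lies at chr14:35404700-35404999 on the minus strand, with an IRF core at -139 and a kB match at -81. OPTN lies at chr10:13099832-13100131 on the plus strand, with overlapping kB matches at -12 and -11. TAPBP lies at chr6:33314029-33314328 on the minus strand, with a kB match at -56 and overlapping IRF cores at -20 and -14. A match is a description of these letters and not evidence of binding.
UBD: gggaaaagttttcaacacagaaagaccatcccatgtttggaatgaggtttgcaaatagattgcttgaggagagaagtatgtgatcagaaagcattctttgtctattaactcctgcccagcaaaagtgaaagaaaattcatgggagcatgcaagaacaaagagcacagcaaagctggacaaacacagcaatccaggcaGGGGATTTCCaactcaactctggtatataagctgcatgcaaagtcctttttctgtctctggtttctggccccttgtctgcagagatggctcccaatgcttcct
BIRC3: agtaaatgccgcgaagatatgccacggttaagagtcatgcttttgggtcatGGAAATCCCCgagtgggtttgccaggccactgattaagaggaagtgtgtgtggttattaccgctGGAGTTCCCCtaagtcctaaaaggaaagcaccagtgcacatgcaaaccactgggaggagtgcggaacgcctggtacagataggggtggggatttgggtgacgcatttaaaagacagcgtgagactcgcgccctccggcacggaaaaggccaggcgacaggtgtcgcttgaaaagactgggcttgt
NFKBIA: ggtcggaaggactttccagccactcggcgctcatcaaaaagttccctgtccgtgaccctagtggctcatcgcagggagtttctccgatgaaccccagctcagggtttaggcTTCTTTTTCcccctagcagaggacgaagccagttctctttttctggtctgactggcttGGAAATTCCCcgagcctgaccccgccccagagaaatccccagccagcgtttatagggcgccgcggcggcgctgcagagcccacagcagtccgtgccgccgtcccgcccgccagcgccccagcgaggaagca
OPTN: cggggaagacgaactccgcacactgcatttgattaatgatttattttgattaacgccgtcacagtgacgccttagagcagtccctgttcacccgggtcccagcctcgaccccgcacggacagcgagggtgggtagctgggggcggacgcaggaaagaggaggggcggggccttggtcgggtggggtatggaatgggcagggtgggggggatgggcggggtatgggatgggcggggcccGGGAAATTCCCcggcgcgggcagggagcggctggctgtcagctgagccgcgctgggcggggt
TAPBP: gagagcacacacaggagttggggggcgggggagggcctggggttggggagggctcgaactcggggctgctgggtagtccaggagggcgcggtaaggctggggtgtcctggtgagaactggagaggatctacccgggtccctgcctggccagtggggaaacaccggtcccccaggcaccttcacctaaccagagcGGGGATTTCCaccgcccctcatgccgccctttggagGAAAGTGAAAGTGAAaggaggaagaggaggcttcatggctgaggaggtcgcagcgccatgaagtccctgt

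Of 15458 genes tested, 474 (3.07%) were higher and 217 (1.4%) were lower with TNFα at an adjusted p under 0.05, by edgeR's quasi-likelihood test with Benjamini-Hochberg adjustment. The median log2 fold change was 0.83 over the genes called higher and -0.61 over those called lower, against -0.01 over all genes tested. A change of at least 2-fold was seen for 186 of the higher and 41 of the lower genes, and of at least 4-fold for 67 and 7. The 474 higher genes together took 30514 CPM (counts scaled to library size, with TMM factors) without and 53217 CPM with TNFα, and the 217 lower genes 44666 and 28933 CPM. The groups did not overlap for any called gene. Among all genes tested, 1998 (12.9%) had every TNFα library above every untreated one and 1960 (12.7%) had every one below.

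These counts depend on how the 3 library numbers are treated. Libraries with the same number deviated together, and with the number as a block in the model 1821 genes (11.8%) were higher and 1630 (10.5%) lower, which included all 474 and all 217. The block leaves 2 residual degrees of freedom per gene, against 4 without it. Small p-values with the block therefore lean heavily on the spread shared across genes. The libraries numbered 1 stood apart from numbers 2 and 3 in both groups, at 21.2 and 33.8 on the second principal component against -28.1 to 1.85. Without both, which was tried after seeing the data, 1089 genes were higher and 701 lower. In fits that left out 1 library the counts were 513 and 333 without untreated 1, 213 and 73 without untreated 2, 154 and 44 without untreated 3, 562 and 223 without TNFα 1, 156 and 42 without TNFα 2, and 160 and 53 without TNFα 3. Of the called genes, 131 higher and 34 lower ones kept the call in each of these 6 fits. Leaving out untreated 2, untreated 3, TNFα 2 or TNFα 3 cost 413, 499, 495 and 480 of the 691 calls, and leaving out untreated 1 or TNFα 1 cost 116 and 141. A gene is said below to have kept its call when it did so in all 6 fits. Counts of list members called with the block stand against the block's 11.8% higher and 10.5% lower among all genes.

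**Figure D1:**
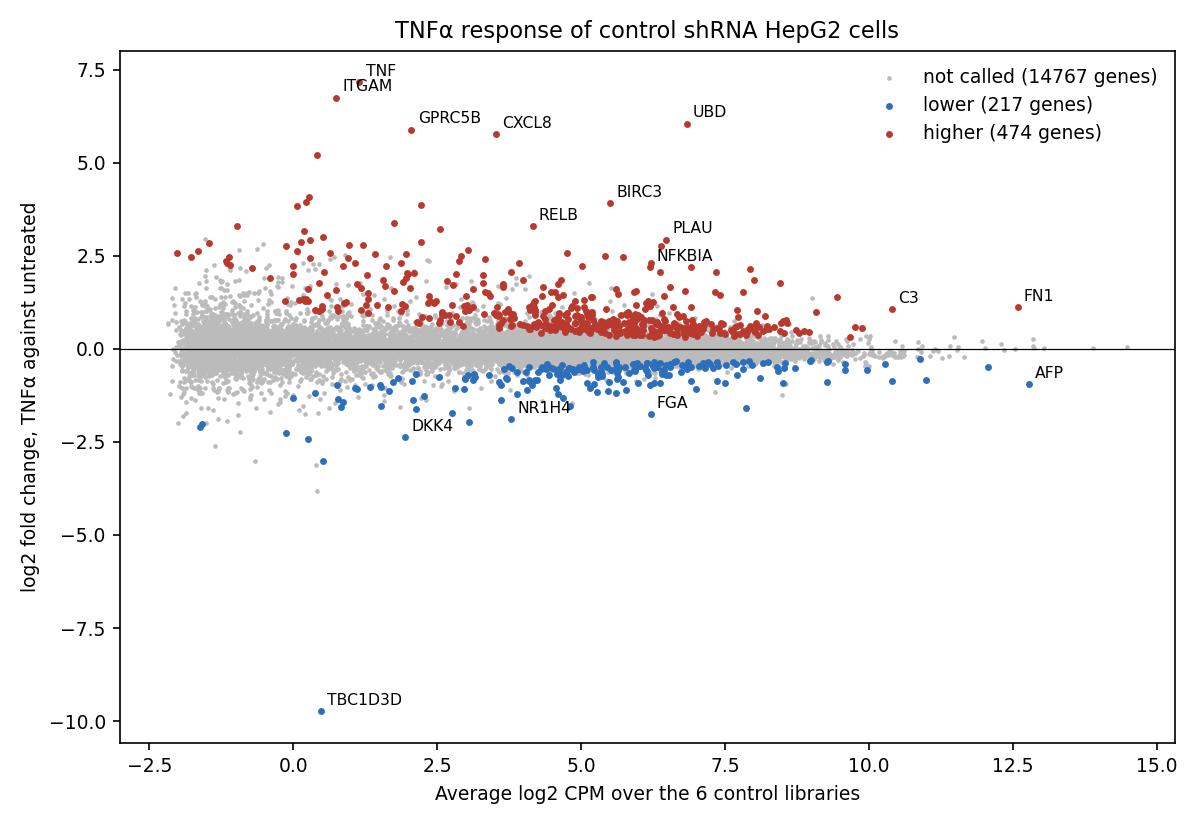
Each point is a gene, with its average log2 CPM over the 6 control libraries on the horizontal axis and its log2 fold change with TNFα on the vertical axis; the 474 genes called higher are red, the 217 called lower blue and the others grey. UBD, at a log2 of 6.05, lies far above genes of like abundance. The lone low point is TBC1D3D, named after its values were seen, at 3.81, 1.48 and 2.77 CPM without and listed at 0 in all 3 libraries with TNFα, one of a family of near-identical genes whose reads can be split between copies.

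The 4 genes that mark the response all rose and all kept their call. UBD encodes FAT10, a ubiquitin-like protein that targets others for degradation. It was at 1.66, 4.54 and 4.12 CPM in untreated libraries 1 to 3 and at 182, 242 and 252 CPM with TNFα. The groups lay far apart, and the fitted change was 66.2-fold (log2 6.05 ± 0.34, SE; adjusted p = 0.000209). BIRC3 is a ubiquitin ligase of the receptor complex that restrains cell death. It was at 5.20, 5.76 and 5.88 CPM without and 67.7, 103 and 84.1 CPM with TNFα, 15.1-fold higher (log2 3.92 ± 0.17, adjusted p = 0.000143). RELB, an NF-κB subunit of the slower, non-canonical branch, went from 2.71, 4.12 and 3.04 CPM to 26.6, 31.6 and 38.4 CPM, a 9.85-fold change (log2 3.30 ± 0.20, adjusted p = 0.000299). NFKBIA encodes IκBα, the inhibitor whose loss starts the response and whose resynthesis ends it. Its untreated levels of 22.7, 27.8 and 28.6 CPM rose to 102, 136 and 125 CPM, 4.60-fold higher (log2 2.20 ± 0.14, adjusted p = 0.0003). Spread within a group was small against the change for each of the 4 genes.

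**Figure D2:**
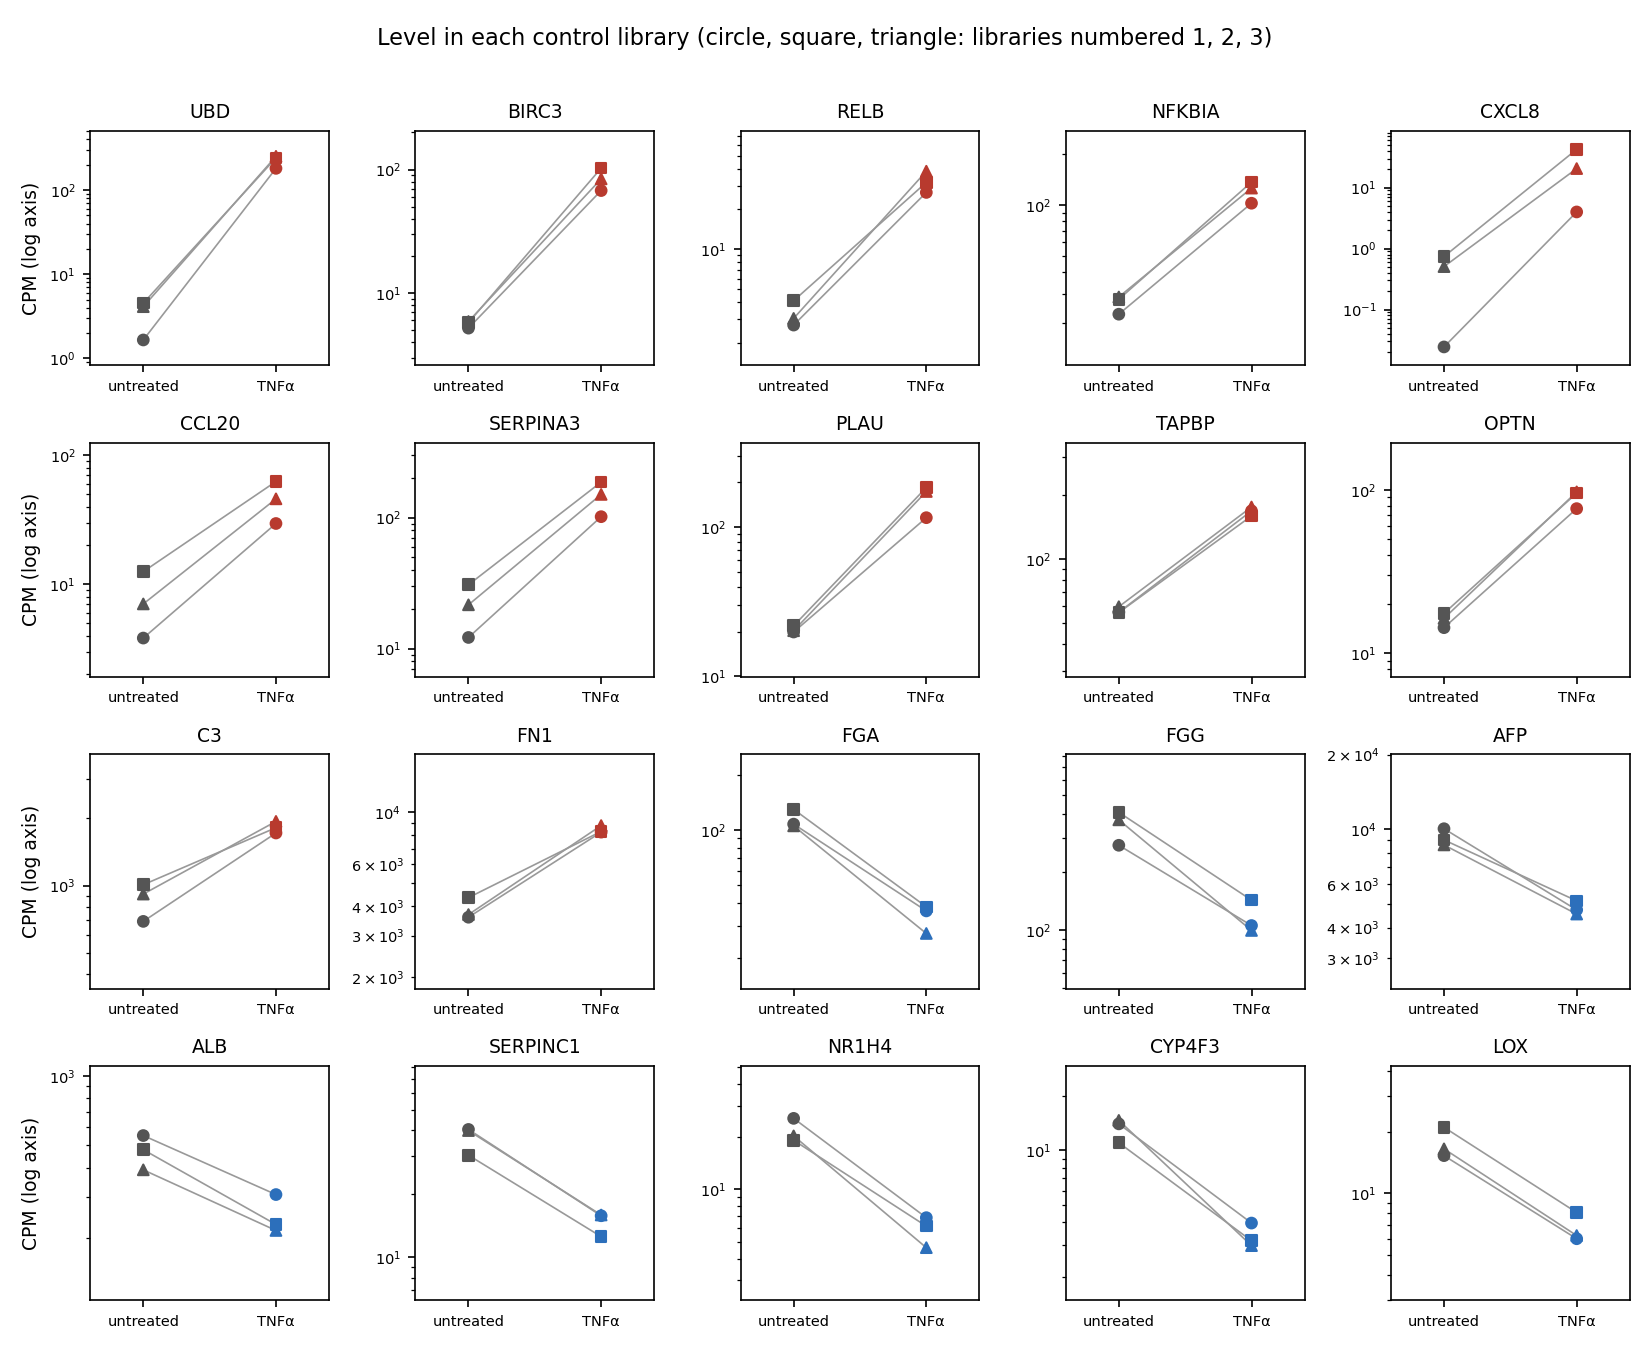
Each panel shows the CPM of 1 gene, on a log axis, in the 3 untreated and the 3 TNFα libraries, with lines joining libraries of the same number (circle 1, square 2, triangle 3). UBD runs from 1.66 to 4.54 CPM without and from 182 to 252 CPM with TNFα, and CCL20 and SERPINA3 show library 1 lowest in both groups.

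Of the receptors and the complex that forms on them, 6 of 22 tested genes rose and none fell, against 3.07% and 1.4% of all genes; the median log2 fold change was 0.19. With the replicate block 8 rose. The receptor gene TNFRSF1A was at 37.2 to 42 CPM without and 38.3 to 50.4 CPM with TNFα and was not called (log2 0.20, adjusted p = 0.399). TRAF1, an adaptor that is itself an NF-κB target, was at 6.10, 5.80 and 6.05 CPM without and at 13.6, 20.4 and 22.9 CPM with TNFα, 3.17-fold higher (log2 1.67 ± 0.20, adjusted p = 0.00411). IKBKE, a kinase related to the IκB kinases, rose 3.38-fold (adjusted p = 0.022). The ubiquitin ligases TRAF2 (1.43-fold) and BIRC2 (1.5-fold), and the kinase MAP3K8 (1.53-fold), rose less. TRAF1 and BIRC3 kept their call; the other 4 lost it in some fit without 1 library, with adjusted p up to 0.193.

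Of the 5 NF-κB subunits 3 rose, and all 3 kept the call. NFKB2, the precursor that pairs with RELB, was at 23.8, 27.3 and 24.3 CPM without and 111, 125 and 135 CPM with TNFα, 4.92-fold higher (log2 2.30 ± 0.10, adjusted p = 0.000143). NFKB1 rose 1.56-fold (log2 0.65 ± 0.07, adjusted p = 0.00359). RELA and REL were not called. RELA was at 57.8 to 63.8 CPM without and 60.7 to 70.6 CPM with TNFα (log2 0.10, adjusted p = 0.601). REL had a log2 change of 0.26 (adjusted p = 0.121, and 0.0259 with the block).

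Of inhibitors and feedback genes 10 of 19 rose and none fell, with a median log2 fold change of 0.81; the block gave 13. TNFAIP3 encodes A20, which edits ubiquitin chains and shuts down the receptor complex. It was at 49.9, 41.8 and 37.1 CPM without and 188, 210 and 197 CPM with TNFα, 4.62-fold higher (log2 2.21 ± 0.12, adjusted p = 0.000207). Its partner TNIP1 rose 2.23-fold, the deubiquitinase CYLD 2.11-fold and the inhibitor NFKBIE 3.18-fold. KLF6, a transcription factor, ran from 56.8 to 99.2 CPM without and from 204 to 281 CPM with TNFα, 2.90-fold higher. NFKBIA and these 5 genes kept the call. NFKBIZ, BCL3, TRAF3 and ZC3H12C rose 1.65-fold to 1.95-fold and lost it in some fit, with adjusted p up to 0.131.

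Of 13 immediate early and AP-1 genes tested, 3 rose after 24 hours and none fell, with a median log2 fold change of 0.58: FOSL2 (1.46-fold), JUNB (1.94-fold) and the survival gene IER3 (1.97-fold), none of which kept the call (adjusted p up to 0.198). JUN was at 43.9, 40.5 and 22.8 CPM without and 79.2, 57.1 and 63.0 CPM with TNFα, which did not pass the test (log2 0.89 ± 0.24, adjusted p = 0.0823, and 0.00156 with the block, under which 7 of the 13 rose). Among genes of cell death and survival 2 of 21 rose and none fell, with a median log2 fold change of 0.16. These were BCL2L1, an inhibitor of apoptosis, at 269, 275 and 233 CPM without and 393, 384 and 397 CPM with TNFα (log2 0.59 ± 0.08, adjusted p = 0.00688), and CFLAR, which blocks caspase 8 at the receptor (1.43-fold, adjusted p = 0.024, and up to 0.115 without 1 library). BCL2L1 kept the call. With the block 8 were higher and 1 lower. The list leaves out BIK and BCL2, named here after their values were seen, which were also called higher. BIK had a log2 change of 1.79 (adjusted p = 0.00473) and kept the call. BCL2 had a log2 change of 0.61 (adjusted p = 0.0445) and did not keep it.

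Chemokines, which draw leukocytes, were few: 6 of the 15 listed genes had enough counts to be tested, and 2 rose and none fell, with a median log2 fold change of 0.43. CXCL8, which attracts neutrophils, was at 0.0244, 0.740 and 0.506 CPM without and at 3.99, 42.4 and 20.5 CPM with TNFα (adjusted p = 0.0226); untreated library 1 holds 1 count, so no fold is given. CCL20, a ligand of the receptor CCR6, went from 3.83, 12.5 and 7.04 CPM to 29.6, 62.5 and 45.9 CPM, 5.95-fold higher (log2 2.57 ± 0.43, adjusted p = 0.0175). In both groups library 1 was the lowest and library 2 the highest for both genes. Neither kept the call (adjusted p up to 0.106), while with the block their adjusted p was 1.07e-07 and 6.25e-07 and 3 chemokines rose. CX3CL1 had a log2 change of 0.66 (adjusted p = 0.0673, and 0.000197 with the block). CCL2, CXCL1, CXCL9 and CXCL10 are listed at 0 in all 6 libraries.

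Among cytokines 5 of 13 tested genes rose and none fell, with a median log2 fold change of 0.96; with the block 8 were higher and 2 lower. The transcript of TNF itself was at 0, 0.0322 and 0.0482 CPM without, 3 counts or fewer per library, and at 1.45, 6.29 and 4.99 CPM with TNFα (adjusted p = 0.0042). Its neighbour LTB, which encodes the membrane anchor of lymphotoxin, went from 0.0244, 0.129 and 0.0482 CPM to 2.85, 1.90 and 2.54 CPM (adjusted p = 0.00111). IL32, an inflammatory cytokine, was at 63.1, 104 and 105 CPM without and 299, 436 and 468 CPM with TNFα, 4.43-fold higher (log2 2.15 ± 0.23, adjusted p = 0.00319). These 3 kept the call. CSF1, the macrophage growth factor, rose 3.35-fold and EBI3, a shared subunit of interleukins, 6.85-fold, with adjusted p up to 0.0526 and 0.145 without 1 library. LIF had 7.66, 15.9 and 10.4 CPM without and 13.6, 31.3 and 20.9 CPM with TNFα and was not called (adjusted p = 0.168, and 5.49e-05 with the block).

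Adhesion and immune surface genes showed 4 increases and no decrease among 9 tested, with a median log2 fold change of 0.89. ICAM1, which leukocytes bind through integrins, was at 32.1, 35.2 and 27.7 CPM without and 116, 148 and 135 CPM with TNFα, 4.2-fold higher (log2 2.07 ± 0.12, adjusted p = 0.000291). ICAM2 was at 0.683 to 0.837 CPM without and 3.56 to 5.20 CPM with TNFα, 5.80-fold higher (adjusted p = 0.00115). CD83 rose 2.17-fold. TNFRSF9, a costimulatory receptor, rose 3.22-fold, but its adjusted p reached 0.163 without TNFα 2. The first 3 kept the call, and SELE is listed at 0 in all 6 libraries.

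Among genes that present peptides on MHC class I, 9 of 16 tested rose and none fell, with a median log2 fold change of 0.66 against -0.01 over all genes. TAPBP, or tapasin, holds empty class I molecules at the peptide transporter. It was at 56.4, 56.2 and 59.9 CPM without and 168, 159 and 175 CPM with TNFα, 2.91-fold higher (log2 1.54 ± 0.07, adjusted p = 0.000167). TAP1, a subunit of that transporter, was at 24.0, 22.7 and 20.9 CPM without and 43.7, 45.4 and 47.6 CPM with TNFα, 2.02-fold higher (adjusted p = 0.00119). The peptidases ERAP1 (1.63-fold) and ERAP2 (1.80-fold), which trim peptides in the endoplasmic reticulum, and the class I-like MR1 (2.27-fold) rose as well. These 5 kept the call. HLA-B, a heavy chain, rose 2.19-fold from near 1 CPM, the light chain B2M 1.28-fold and TAPBPL 1.72-fold, with adjusted p up to 0.186 without 1 library; reads of HLA genes can be split between near-identical copies. HLA-C was not called (log2 0.23, adjusted p = 0.33).

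In the immunoproteasome list, UBD and the subunit PSMB9 rose among 9 tested. PSMB9 was at 1.98, 1.32 and 1.59 CPM without and 4.06, 2.92 and 4.21 CPM with TNFα (2.28-fold, adjusted p = 0.0302, up to 0.125 without 1 library). PSMB8 was at 16.6, 14.7 and 18 CPM without and 22.2, 21.4 and 23.6 CPM with TNFα and was not called (log2 0.44, adjusted p = 0.0662, and 0.00305 with the block). The median over the 9 was 0.21, and the block called 5 of them higher.

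Genes known to respond to interferon rose in 11 of 32 cases and fell in none, with a median log2 fold change of 0.41; 17 rose with the block. IRF1, a transcription factor shared by both pathways, was at 11.7, 10.6 and 12 CPM without and 23, 23.2 and 25.9 CPM with TNFα, 2.10-fold higher (log2 1.07 ± 0.11, adjusted p = 0.00202). The nuclease ISG20 rose 3.73-fold and OAS3, which makes oligoadenylates on sensing double-stranded RNA, 1.64-fold. IRF1, ISG20 and OAS3 kept the call. OAS1, IFIH1, IFITM3, IFI35, IFI27, GBP3, DDX58 and TRIM21 rose 1.49-fold to 3.02-fold without keeping it, with adjusted p up to 0.167.

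The MHC region of chromosome 6, taken from the start of TRIM27 to the start of KIFC1 (chr6:28903002-33391461, RefSeq GRCh38.p14), holds 128 tested genes. Of these 13 (10.2%) were higher, against 3.24% of all 14483 tested genes that could be placed on the genome, and 1 was lower; the median over the region was 0.01. In order along the chromosome the higher genes included UBD, HLA-J, IER3, HLA-B, TNF, LTB, CLIC1, VWA7, TAP1, PSMB9, COL11A2 and TAPBP. They include genes of peptide presentation, of the proteasome, of TNF-family cytokines and of survival. COL11A2, a minor fibrillar collagen, was at 1.15, 0.998 and 1.16 CPM without and 5.83, 6.65 and 7.04 CPM with TNFα, 5.88-fold higher (adjusted p = 0.000396), and kept the call. HLA-J (3.72-fold) is a pseudogene close in sequence to other class I genes and its value is uncertain. The gene that fell was C4B (log2 -0.43, adjusted p up to 0.145 without 1 library), which can share reads with C4A. With the block 21 (16.4%) were higher and 7 lower.

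Of 14 acute-phase genes tested 1 rose and 6 fell, with a median log2 fold change of -0.57, the lowest of the gene lists. SERPINA3, an inhibitor of neutrophil proteases, was at 12.2, 30.7 and 21.6 CPM without and 102, 187 and 150 CPM with TNFα, 6.83-fold higher (log2 2.77 ± 0.35, adjusted p = 0.00552). Its direction was not shared by the 3 chains of fibrinogen, the clotting protein, all of which fell. FGA was at 108, 130 and 105 CPM without and 36.1, 38.0 and 27.2 CPM with TNFα, 3.38-fold lower (log2 -1.76 ± 0.14, adjusted p = 0.000945). FGG went from 275, 407 and 372 CPM to 105, 143 and 99.4 CPM, 3.03-fold lower (log2 -1.6 ± 0.18, adjusted p = 0.00362). FGB was 2.24-fold lower (adjusted p = 0.016). HP, the haemoglobin carrier haptoglobin, was 2.59-fold lower, ORM1 1.59-fold and ORM2 1.62-fold; the 2 ORM genes are near-identical copies. SERPINA3, HP, ORM2, FGA and FGG kept the call, while FGB and ORM1 lost it in some fit (adjusted p up to 0.087). SERPINA1 was at 2441 to 2973 CPM without and 2500 to 3091 CPM with TNFα and was not called (adjusted p = 0.735). CRP and SAA1 are listed at 0 in all 6 libraries. These counts depend on the choice of members. The list leaves out C3, which rose and is counted with complement below. It also leaves out LRG1, named here after its values were seen, which rose (log2 1.15, adjusted p = 0.00119, call kept).

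Of 21 complement genes tested 3 rose and 1 fell (C4B, above), with a median log2 fold change of -0.12. C3, the central component, was at 691, 1009 and 916 CPM without and 1721, 1818 and 1940 CPM with TNFα, 2.09-fold higher (log2 1.07 ± 0.13, adjusted p = 0.00542). CD59, which protects cells from the membrane attack complex, rose 1.56-fold and the protease C1S 2.26-fold. C3 and CD59 kept the call, and C1S did not (adjusted p up to 0.114). With the block 4 rose and 6 fell, against 11.8% and 10.5% of all genes. Of 16 coagulation genes none rose and 2 fell, with a median of -0.22: SERPINC1, or antithrombin, from 40.3, 30.4 and 39.8 CPM to 15.7, 12.5 and 15.9 CPM (2.51-fold lower, log2 -1.33 ± 0.15, adjusted p = 0.00337, call kept), and F7, the factor that starts clotting with tissue factor (1.55-fold lower, adjusted p = 0.0459, up to 0.187 without 1 library). The block called 2 of the 16 higher and 5 lower, against the same shares of all genes.

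Albumin and plasma carriers fell in 4 of 13 cases and rose in none, with a median log2 fold change of -0.32. AFP, the fetal albumin that hepatoma cells make, was at 10033, 9039 and 8628 CPM without and 4714, 5127 and 4534 CPM with TNFα, 1.93-fold lower (log2 -0.95 ± 0.08, adjusted p = 0.000856). No other gene had a larger decrease in CPM, which are not scaled for gene length. ALB, or albumin, was at 552, 479 and 392 CPM without and 307, 228 and 215 CPM with TNFα, 1.90-fold lower (adjusted p = 0.023). TF, the iron carrier transferrin, was 1.80-fold lower (adjusted p = 0.011) and RBP4, the retinol carrier, 2.11-fold lower (log2 -1.07 ± 0.08, adjusted p = 0.000656). AFP and RBP4 kept the call; ALB and TF reached adjusted p of 0.117 and 0.0639 without 1 library. With the block 6 fell and 1 rose. APOH, a phospholipid-binding plasma protein, was at 746, 356 and 418 CPM without and 304, 158 and 183 CPM with TNFα, and was called with the block (adjusted p = 1.14e-06) and not without (0.0797).

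Among apolipoproteins and genes of lipoprotein assembly 4 of 15 fell and none rose, with a median log2 fold change of -0.30. APOA1, the main protein of high-density lipoprotein, was at 1141, 1151 and 1297 CPM without and 742, 774 and 889 CPM with TNFα, 1.49-fold lower (log2 -0.58 ± 0.09, adjusted p = 0.0133). APOA4 and APOC3, which lie beside it, were 1.76-fold and 1.48-fold lower, and LCAT, which esterifies cholesterol on these particles, 1.58-fold. None of the 4 kept the call (adjusted p up to 0.123). APOB, the structural protein of low-density lipoprotein, was at 6405 to 7201 CPM without and 7495 to 8886 CPM with TNFα (log2 0.27, adjusted p = 0.108, and 0.011 with the block, under which 10 fell and 3 rose).

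**Figure D3:**
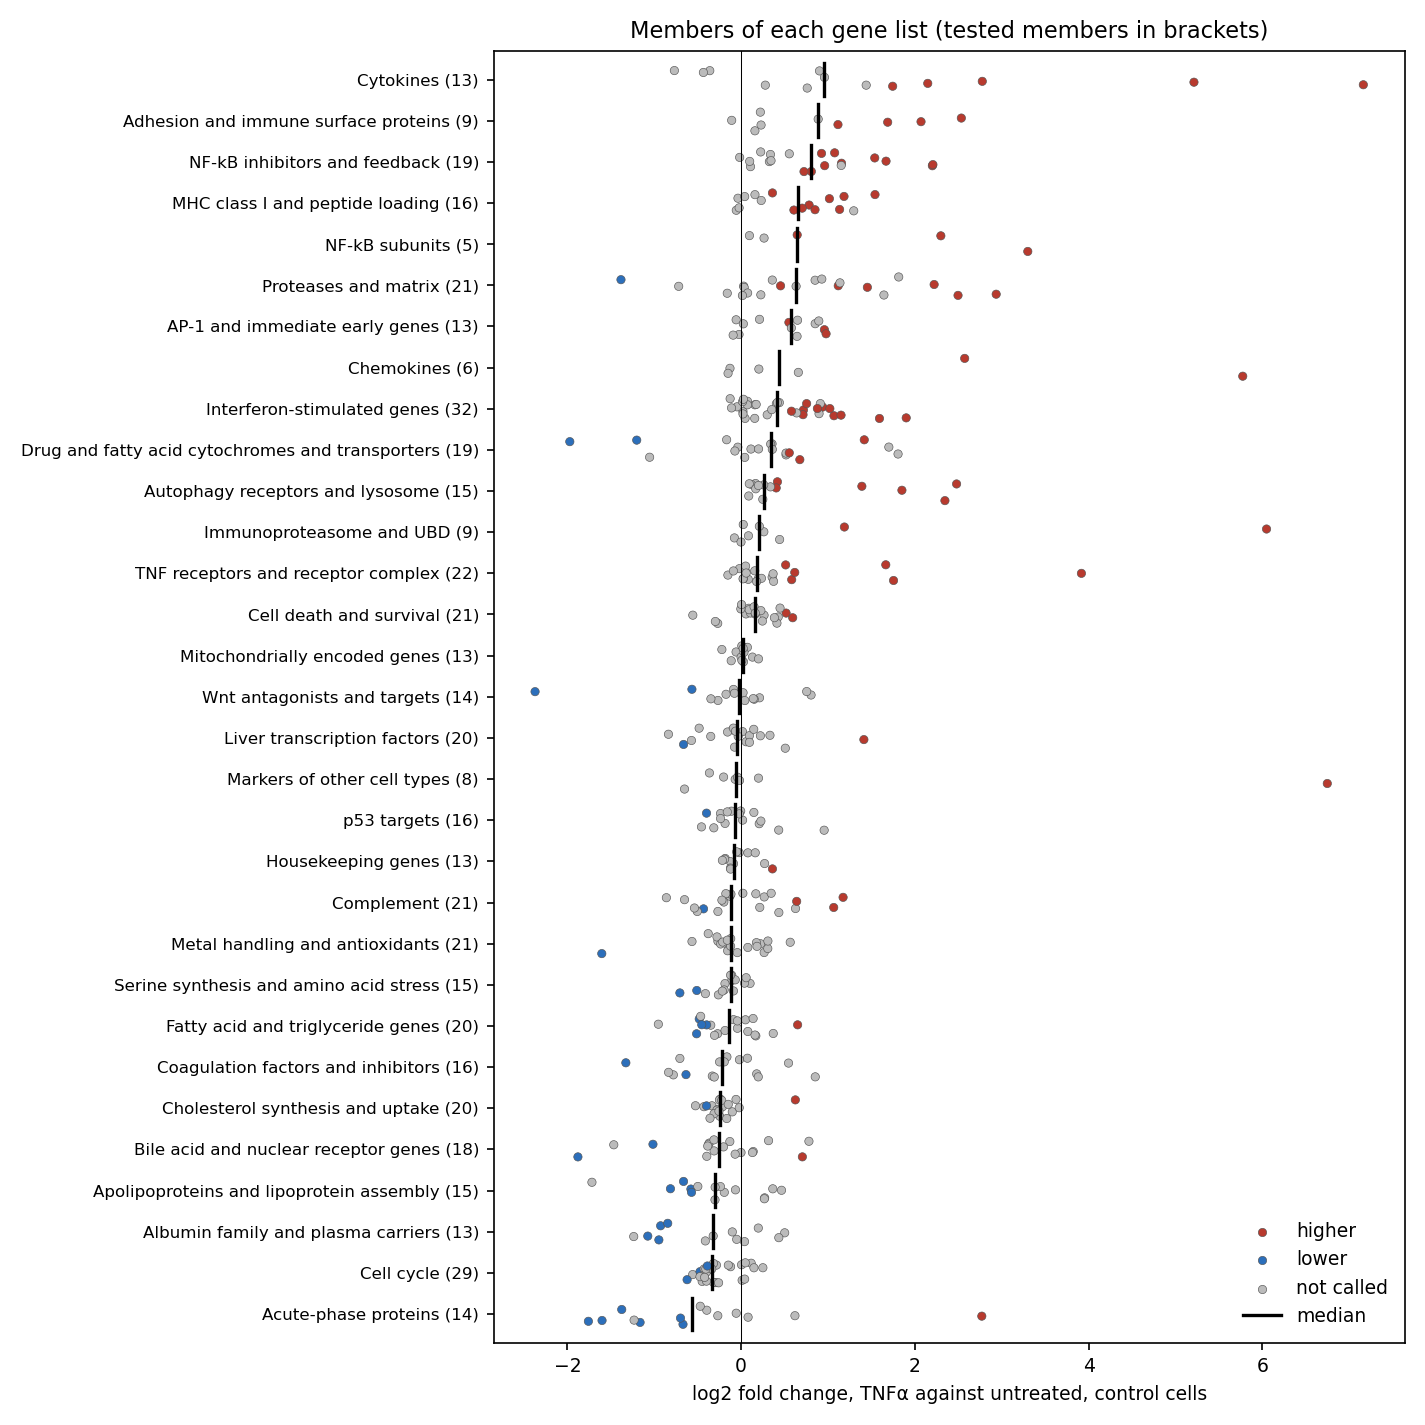
Each row is a gene list with its number of tested members, and each point a member placed by its log2 fold change with TNFα (red higher, blue lower, grey not called); the black bar is the median, and the places of TNF, LTB, ITGAM and CXCL8 depend on the model because untreated counts are near 0. Lists of immune signalling lie at the top, up to a median of 0.96 for cytokines, and acute-phase proteins at the bottom with -0.57.

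In bile acid metabolism and its receptors 1 of 18 genes rose and 2 fell, with a median log2 fold change of -0.26. NR1H4 encodes FXR, the nuclear receptor for bile acids. It was at 25.5, 19.1 and 20.2 CPM without and 6.87, 6.14 and 4.62 CPM with TNFα, 3.68-fold lower (log2 -1.88 ± 0.18, adjusted p = 0.00195), and kept the call. SLC51A, a subunit of the basolateral bile acid exporter, was 2.02-fold lower and NR0B2, the FXR target SHP, 1.63-fold higher, with adjusted p up to 0.108 and 0.131 without 1 library. CYP7A1, the rate-limiting enzyme of bile acid synthesis, differed widely between numbers: 71.9, 20.0 and 33.6 CPM without and 26.9, 8.62 and 10.0 CPM with TNFα. Each TNFα library was below the untreated one of its number, and the gene was called with the block (adjusted p = 8.06e-06) but not without (0.189). In all the block called 3 higher and 9 lower, against 11.8% and 10.5% of all genes.

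Cytochromes and drug transporters moved both ways, with 3 of 19 higher and 2 lower and a median log2 fold change of 0.34. CYP4F3, which oxidises leukotrienes and fatty acids, was at 14.0, 11 and 14.6 CPM without and 3.97, 3.17 and 2.98 CPM with TNFα, 3.92-fold lower (log2 -1.97 ± 0.17, adjusted p = 0.00119). The related CYP4F12 was 2.30-fold lower (adjusted p = 0.00281), and reads of CYP4F genes can be split between similar copies. CYP3A5, a drug-metabolising cytochrome, went from 4.44, 4.76 and 3.86 CPM to 10.6, 12.1 and 12.2 CPM, 2.67-fold higher (log2 1.42 ± 0.14, adjusted p = 0.00194). These 3 kept the call. AHR, the dioxin receptor, rose 1.6-fold and the exporter ABCG2 1.47-fold, with adjusted p up to 0.151 without 1 library. UGT1A1, which conjugates bilirubin, was at 9.03, 2.58 and 4.77 CPM without and 28.0, 10.2 and 15.4 CPM with TNFα and was called with the block only (adjusted p = 4.95e-06, against 0.101); the block gave 8 higher and 3 lower.

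Of 20 liver transcription factors 1 rose and 1 fell, with a median log2 fold change of -0.05. GATA6 was at 10.5, 11.8 and 10.4 CPM without and 23.7, 34.1 and 29.3 CPM with TNFα, 2.66-fold higher (log2 1.41 ± 0.15, adjusted p = 0.00256). FOXA1, a pioneer factor of liver chromatin, went from 66.0, 56.1 and 59.0 CPM to 39.6, 37.4 and 37.5 CPM, 1.58-fold lower (log2 -0.66 ± 0.09, adjusted p = 0.00673). Both kept the call. HNF4A was at 237, 276 and 313 CPM without and 270, 266 and 299 CPM with TNFα, with overlapping groups (log2 0.02, adjusted p = 0.96). CEBPA was lower within each number, going from 35.2, 64.1 and 67.3 CPM to 25.2, 32.1 and 35.9 CPM, and passed only with the block (adjusted p = 0.000342, against 0.105), which called 4 higher and 5 lower. Of 14 Wnt antagonists and targets 2 fell and none rose, against 1.4% lower among all genes, with a median log2 fold change of -0.03. DKK4, a secreted Wnt antagonist, went from 6.78, 7.69 and 4.92 CPM to 1.31, 1.24 and 1.19 CPM (5.18-fold lower, log2 -2.37 ± 0.21, adjusted p = 0.00119, call kept). The factor SP5 was 1.48-fold lower (adjusted p = 0.022, up to 0.114). LGR5, a Wnt target and receptor, was called with the block only (log2 0.76, adjusted p = 0.00018, against 0.0624). The block called 2 of the list higher and 4 lower, against 11.8% and 10.5% of all genes.

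Proteases and matrix genes rose in 6 of 21 cases and fell in 1, with a median log2 fold change of 0.63; the block gave 13 and 2. PLAU encodes urokinase, which turns plasminogen into plasmin. It was at 19.9, 21.9 and 20.3 CPM without and 116, 185 and 174 CPM with TNFα, 7.66-fold higher (log2 2.94 ± 0.18, adjusted p = 0.000291). CTHRC1, a secreted matrix protein, rose 5.65-fold, TGM2, which crosslinks proteins, 4.67-fold, and the collagen receptor subunit ITGA2 2.74-fold. FN1, or fibronectin, was at 3590, 4343 and 3684 CPM without and 8211, 8263 and 8751 CPM with TNFα, 2.17-fold higher (log2 1.12 ± 0.08, adjusted p = 0.000603). LOX, which crosslinks collagen, fell from 15.3, 21.1 and 16.5 CPM to 6, 8.06 and 6.22 CPM (2.61-fold lower, adjusted p = 0.00565). These 6 kept the call and LAMC1 (1.37-fold) did not (adjusted p up to 0.134).

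Autophagy receptors and lysosomal genes rose in 6 of 15 cases and fell in none, with all 15 fold changes above 0 and a median log2 fold change of 0.26. OPTN, or optineurin, binds ubiquitin chains and restrains NF-κB. It was at 14.3, 17.5 and 16.3 CPM without and 76.6, 95.4 and 97 CPM with TNFα, 5.58-fold higher (log2 2.48 ± 0.13, adjusted p = 0.000167). SQSTM1, the autophagy receptor p62, went from 120, 101 and 112 CPM to 372, 401 and 431 CPM, 3.61-fold higher (log2 1.85 ± 0.09, adjusted p = 0.000167). CTSS, a lysosomal protease, rose 5.09-fold and LYZ, or lysozyme, 2.62-fold. These 4 kept the call. TAX1BP1 (1.34-fold) and LAMP2 (1.32-fold) did not (adjusted p up to 0.178), and the block called 9 of the 15.

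In cholesterol synthesis and uptake 1 of 20 genes rose and 1 fell, with a median log2 fold change of -0.25. Neither call was kept in every fit without 1 library. With the block 1 rose and 14 fell, against 11.8% and 10.5% of all genes. In fatty acid and triglyceride synthesis 1 of 20 rose and 4 fell, with a median of -0.14, and with the block 2 rose and 10 fell. SCD, the desaturase that makes oleate, went from 5005, 5225 and 4743 CPM to 3905, 3527 and 3292 CPM (1.4-fold lower, adjusted p = 0.0147), and FASN, FADS1 and DGAT2 were 1.32-fold, 1.43-fold and 1.37-fold lower, while the lipid droplet protein PLIN2 rose 1.57-fold. None of these kept the call (adjusted p up to 0.199).

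There were 2 decreases among 15 tested genes of serine synthesis and amino acid stress, with a median log2 fold change of -0.12. PHGDH, the first enzyme of serine synthesis, was at 238, 262 and 281 CPM without and 150, 154 and 176 CPM with TNFα, 1.63-fold lower (log2 -0.70 ± 0.09, adjusted p = 0.00682), and PSAT1, the next enzyme, was 1.42-fold lower (adjusted p = 0.00434). Both kept the call, and the block called 6 lower. SLC30A10, a manganese exporter, was the only one of 21 genes of metal handling and antioxidant defence to pass the test, falling from 5.76, 6.86 and 7.02 CPM to 2.54, 2.31 and 1.6 CPM (3.04-fold lower, log2 -1.6 ± 0.21, adjusted p = 0.00613), and kept the call; the list's median was -0.12. SOD2, a mitochondrial enzyme known as an NF-κB target, was at 186 to 203 CPM without and 211 to 251 CPM with TNFα (log2 0.23, adjusted p = 0.18, and 0.032 with the block). The block called 3 of the metal handling list higher and 4 lower, against 11.8% and 10.5% of all genes.

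Cell cycle genes were lower in 4 of 29 cases and higher in none, with a median log2 fold change of -0.34; with the block 20 were lower and none higher. CCNA2, cyclin A, was at 118, 129 and 142 CPM without and 98.2, 88.7 and 92.9 CPM with TNFα, 1.39-fold lower (adjusted p = 0.0269). CDK1 was 1.36-fold, CDC25C 1.54-fold and PCNA 1.31-fold lower, and none of the 4 kept the call (adjusted p up to 0.179). MKI67 was at 708, 611 and 661 CPM without and 677, 410 and 531 CPM with TNFα, with overlapping groups (adjusted p = 0.382, and 0.0253 with the block). Of 16 p53 targets TRIAP1 fell (1.32-fold, adjusted p = 0.0437), a call lost in each of the 6 fits without 1 library. The list's median was -0.07, and the block called 3 higher and 4 lower, against 11.8% and 10.5% of all genes. In bulk RNA, fewer cells in a phase of the cycle and less RNA per cell cannot be told apart.

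The histone variants targeted in the other line were not called here. MACROH2A1 was at 205, 252 and 255 CPM without and 254, 267 and 281 CPM with TNFα (log2 0.17, adjusted p = 0.375), and MACROH2A2 at 58.5, 55.0 and 60.7 CPM without and 46.7, 40.8 and 51.5 CPM with it (log2 -0.33, adjusted p = 0.123, and 0.00612 with the block). Hepatocyte markers were present in all 6 libraries, as the values of ALB, AFP and HNF4A above show. Of 17 markers of leukocytes, endothelium and fibroblasts, a list that leaves out LYZ, 8 had enough counts to be tested, and 1 rose. That was ITGAM, the myeloid integrin CD11b, at 0.0244, 0 and 0.0482 CPM without and 2.61, 3.22 and 3.65 CPM with TNFα (adjusted p = 0.000431, call kept). The 17 markers summed to 38.8 to 41.9 CPM without and 39.4 to 41.1 CPM with TNFα. LYZ, also a leukocyte marker, was counted with the lysosomal genes and is not in this sum. It rose (log2 1.39, call kept). CD3E was at 0 in all 6 libraries, and the leukocyte marker PTPRC was at 0.387 CPM or less. Of 13 housekeeping genes B2M was called (median -0.09; with the block 2 higher and 3 lower), and of 13 mitochondrially encoded genes none, at 7.92% to 8.94% of counts per library. Library totals were 30955080 to 41811214 counts, so 1 count was worth 0.0239 to 0.0323 CPM.

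Beyond these lists, the genes with the largest fold changes or the largest differences in CPM included receptors and signalling proteins. GPRC5B, an orphan G protein-coupled receptor, was at 0.122, 0.0966 and 0.169 CPM without and 3.68, 11.1 and 9.22 CPM with TNFα (adjusted p = 0.00125), with too few untreated counts for a fold. ASB2, a part of a ubiquitin ligase, rose 14.7-fold, PTAFR, the receptor of platelet-activating factor, 9.28-fold, and TNFSF14, the cytokine LIGHT, 6.33-fold; all 4 kept the call. RASSF2 rose 7.35-fold (adjusted p = 0.0373, up to 0.148 without TNFα 2). STAP2, an adaptor, went from 43.8, 44.9 and 45.9 CPM to 137, 131 and 160 CPM (3.18-fold, adjusted p = 0.000209), and ITGAV, the integrin αV, from 140, 189 and 150 CPM to 491, 654 and 479 CPM (3.40-fold, adjusted p = 0.00119). ATP1B1 rose 2.00-fold, SPTBN1 1.5-fold and FAT1 1.47-fold, of which ATP1B1 kept the call along with STAP2 and ITGAV. In total 59 genes were under 1 CPM in every untreated and at or above 1 CPM in every treated library, of which 36 were called higher. They were picked on the values that the test uses. Of all 1998 genes with every TNFα library above every untreated one, 474 were called. SLC6A19, an amino acid transporter, was at 0.146 to 0.869 CPM without and 3.72 to 7.26 CPM with TNFα (adjusted p = 0.0138, up to 0.073 without TNFα 2). AMPD3 was at 0.537 to 0.901 and 1.26 to 4.70 CPM (adjusted p = 0.0432, up to 0.169 without untreated 3). Another 17 genes went the other way, of which 6 were called lower, against 217 of all 1960 with every TNFα library below every untreated one.

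Among the largest decreases outside the lists, RASA4, a Ras inhibitor with near-identical copies, was at 7.93, 9.63 and 13.5 CPM without and 2.81, 2.83 and 3.80 CPM with TNFα (3.29-fold lower, adjusted p = 0.00766). ZNF385B went from 52.2, 38.0 and 35.3 CPM to 18.1, 13.4 and 11.7 CPM (2.90-fold lower, adjusted p = 0.00682). EPHA1, a receptor kinase, was 2.42-fold and VAV3, a guanine nucleotide exchange factor, 2.34-fold lower. None of these 4 kept the call, with adjusted p up to 0.191. GLUD1, glutamate dehydrogenase, was at 816, 781 and 804 CPM without and 467, 417 and 410 CPM with TNFα (1.86-fold lower, log2 -0.89 ± 0.07, adjusted p = 0.000813), and PEG10, an imprinted gene active in hepatoma, was 1.81-fold lower; both kept the call. HSPD1, a mitochondrial chaperone, was 1.22-fold lower (adjusted p = 0.0388, up to 0.166 without TNFα 2).

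Some genes that changed lie side by side, which was examined after seeing the data. Of 469 higher genes with a next tested gene on the chromosome, 39 (8.32%) had a next gene that was also higher, and of 212 lower genes 15 (7.08%) had one that was also lower, against 3.24% higher and 1.46% lower among all placed genes. In 10 adjacent pairs 1 gene rose and the other fell. Some counted pairs overlap or are near-identical and can share reads, such as MSANTD3 with MSANTD3-TMEFF1, ERAP1 with ERAP2 and ORM1 with ORM2. On chromosome 4 FGB, FGA and FGG fell in a row (chr4:154562980-154612656), as did ALB and AFP (chr4:73404287-73456174), and the growth factors EREG and AREG rose (chr4:74365145-74455005). AREG, amphiregulin, was at 8.17, 17.6 and 13 CPM without and 49.1, 92.9 and 76.4 CPM with TNFα, 5.65-fold higher (adjusted p = 0.00558), and kept the call, while EREG reached an adjusted p of 0.0891 without untreated 3. On chromosome 11 BIRC3 and BIRC2 rose (chr11:102317484-102378670) and APOA4, APOC3 and APOA1 fell (chr11:116820700-116837622). TNFSF14 and C3 rose side by side on chromosome 19 (chr19:6661253-6720650).

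The kB consensus was found in 86 of the 379 start regions of higher genes that RefSeq's table holds (22.7%), against 11.1% of 171 for lower genes, 12.4% of 10409 for genes not called and 10.8% of all 27305 regions of this length. Among the 46 regions of genes at least 4-fold higher, a set chosen after seeing the data, 14 (30.4%) had one. The IRF core was in 9.5% of the regions of higher genes, 7.02% of lower and 6.38% of genes not called, and in 8.29% of all regions. The median GC content was 67.0% for higher, 63.3% for lower and 64.7% for genes not called, and its part in these shares was not tested. The HNF4 site (CAAAGTCCA) was in 3 regions of lower genes (1.75%), 3 of higher genes (0.792%), 0.317% of those of genes not called and 0.359% of all regions. A pair of kB matches lies in the region listed for TNFAIP3 (-67 and -55). That region (chr6:137867009-137867308, plus strand) lies around a start inside the gene, whose first base is at 137866349. TAP1 holds both kB and IRF core matches, as TAPBP does above.

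**Figure D4:**
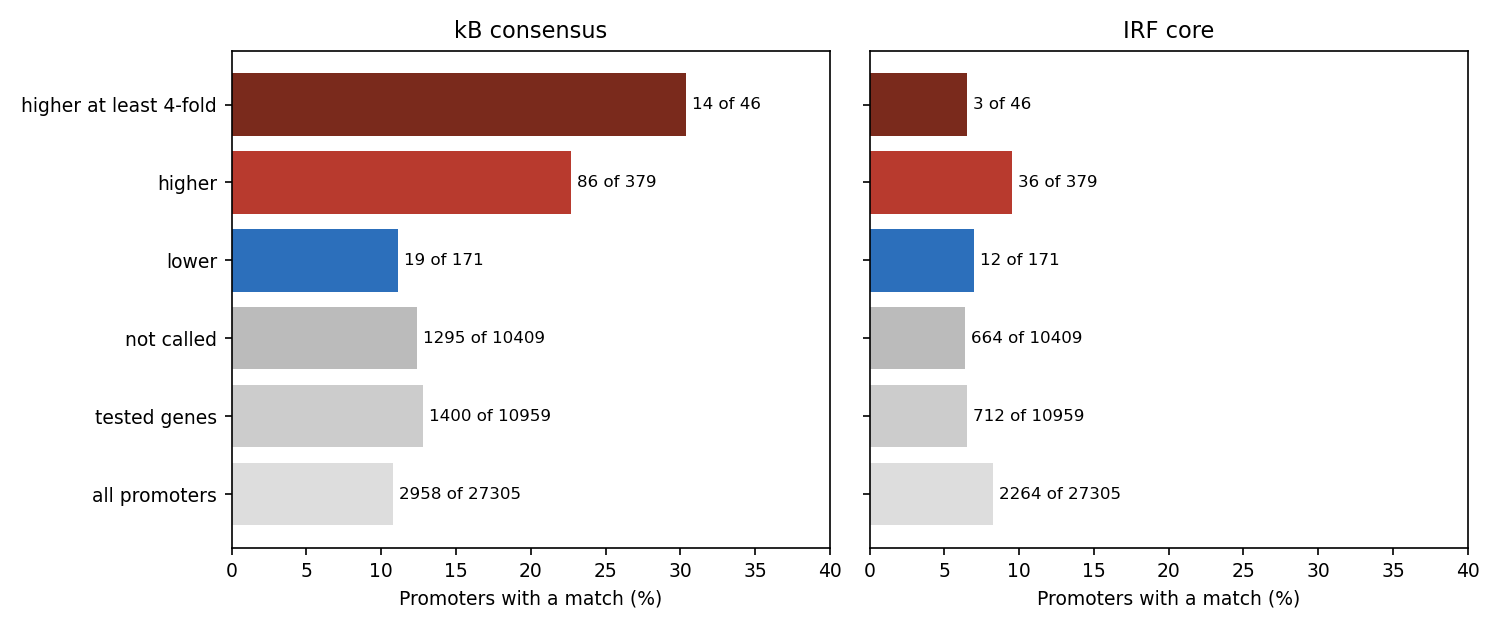
Bars give the percentage of 300-base start regions with at least 1 match to the kB consensus (left) or the IRF core (right) in each set, with the counts beside them. For the kB consensus the bar rises from 12.4% in genes not called to 22.7% in higher genes and 30.4% in those at least 4-fold higher.

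The response was also present in the knock-down line, whose 6 libraries were not in the fit that called these genes. The choice of that fit was made with earlier results of these data known. Of the 465 higher genes tested there, 462 (99.4%) had a log2 fold change above 0 with TNFα, with a median of 0.68 against 0.80 in control cells, and 38 passed the test in that line, where 0.251% of all genes were called higher. Of the 216 lower genes 213 (98.6%) were below 0, with a median of -0.39 against -0.61, and 2 passed, against 0.0129% of all genes. Among genes not called in control cells 43.5% were above 0. The change was smaller in size in knock-down cells for 73.8% of higher and 91.2% of lower genes, and 55.9% of genes not called. Choosing genes in control cells favours large values there, and its part in this was not tested. The interaction of knock-down and TNFα, which tests the difference, called 0 of 16118 genes by edgeR's quasi-likelihood test. The interaction had 184 genes at an unadjusted p under 0.05, fewer than a share of 0.05 of those tested. That share is expected where no gene differs, so the 0 calls do not show that the lines respond alike. With the replicate block the interaction also called 0. By DESeq2's Wald test it called 5: CRYAA, TBC1D3D, RPL37P6 and 2 genes listed by Ensembl number, named here after their values were seen. UBD had a log2 fold change of 4.85 in knock-down cells, BIRC3 3.52, RELB 2.78 and NFKBIA 2.18.

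**Figure D5:**
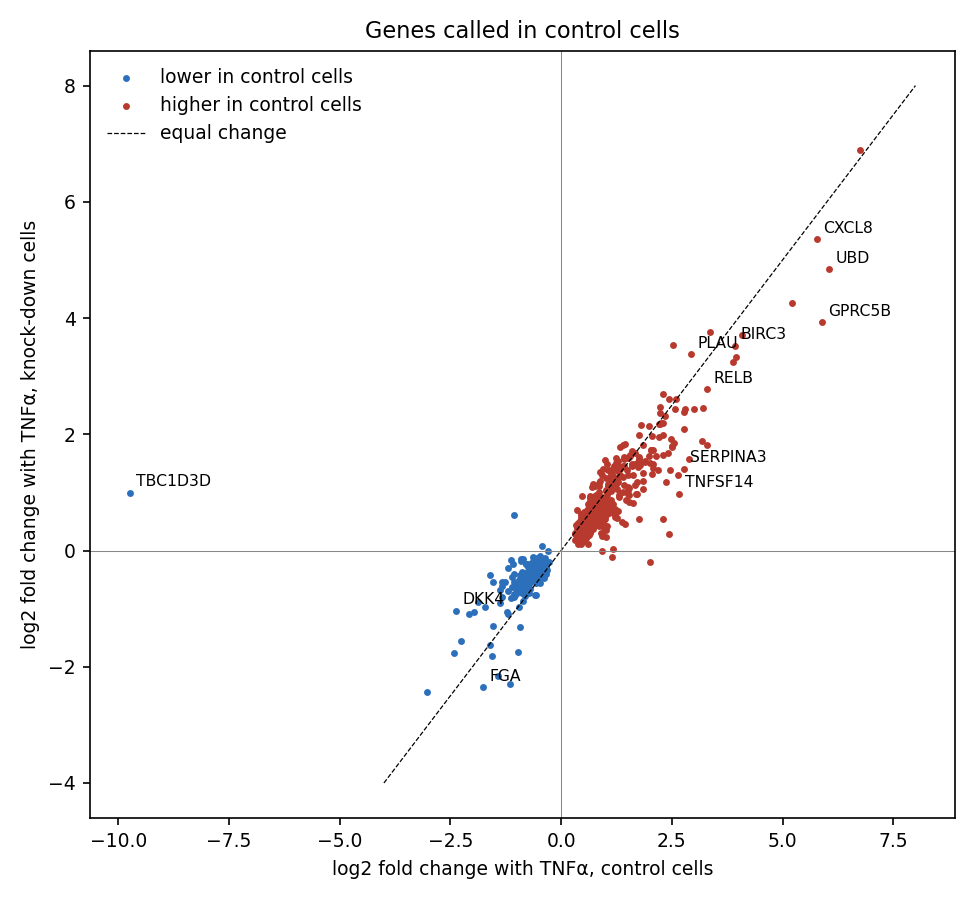
Each point is a gene called in control cells (red higher, blue lower), with its log2 fold change with TNFα in control cells on the horizontal and in knock-down cells on the vertical axis; the dashed line marks equal change. Of the higher genes 462 of 465 lie above 0 in knock-down cells, and of the lower genes 213 of 216 lie below; the point far to the left is TBC1D3D.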

How the data were processed

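RNA-seq libraries of HepG2 cells were analysed from gene counts. Per the submitters' processing notes, base calling used CASAVA 1.7, quantification Salmon 0.14.0 and normalization DESeq2, with GRCh38/hg38. The values used are the estimated counts per gene that the authors deposited, which are whole numbers; the sources used here do not name the annotation, the strand setting or the step from transcripts to genes, so near-identical, overlapping and antisense genes can share reads. The deposited normalized values were not used. Of 35984 genes, 11923 had no count in the 6 control libraries and 15458 passed filterByExpr (minimum count 10, minimum total 15).

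Control TNFα and untreated libraries were compared in R 4.3.3 with edgeR 4.0.16 (TMM, quasi-likelihood test, 6 libraries, no covariate). Every adjusted p is edgeR's, after Benjamini-Hochberg adjustment over all genes tested, and genes under 0.05 were called; with DESeq2 1.42.0, its Wald test was an alternative. The script was tested on simulated data. Replicate numbers from the labels paired the samples: correlations of deviations from the group means were 0.47, 0.23 and 0.19 for numbers 1, 2 and 3, each over 0.1. Of the 6 pairs with different numbers, untreated 2 with TNFα 3 was also over it, at 0.14, untreated 3 with TNFα 2 was at 0.08, and the other 4 were below 0. Counts differed between replicates by more than sampling noise, with chi-square over degrees of freedom of 12.2 to 38.1.

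The comparison, the 31 gene lists and the choice of the 6 libraries without a block were made with earlier results of these data known. Named genes were 4 markers, the macroH2A genes, the 12 called genes with the largest fold change in each direction (average log2 CPM of at least 2), the 8 with the largest CPM difference, up to 8 that passed 1 CPM with TNFα, up to 8 with the smallest p, up to 5 called members per list and, with their values, other list members. Promoters and positions came from RefSeq tables of GRCh38.p14, where 14483 genes (93.7%) matched by symbol and were used for regions and neighbours. Motifs were searched on both strands. Leaving out both libraries numbered 1, the comparison with knock-down cells in their own 6-library fit, the set of genes at least 4-fold higher, promoter GC content and neighbouring genes were added after seeing the data. Some genes and motifs are not reported here.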

Additional observations from a re-analysis of the deposited data

How the results depend on the processing

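The direction of the 145 called genes that the report names or its rule picks held under the alternatives in which they were tested, while the number of calls did not. BIK, BCL2 and LRG1 are not among the 145. Against 474 higher and 217 lower genes, the replicate block gave 1821 and 1630, all 12 libraries 306 and 117, all 12 libraries with the replicate block 1279 and 758, DESeq2's Wald test 922 and 654, and leaving out both libraries numbered 1 (chosen after seeing the data) 1089 and 701. The main calls were shared in 474 and 217 cases with the block, 464 and 215 with DESeq2 and 287 and 111 with 12 libraries. Fits without 1 library gave 154 to 562 higher and 42 to 333 lower genes, and the cause of this range was not tested. DESeq2's size factors (475 and 217), no filter on low counts (533 and 203) and a filter of 1 CPM in 3 libraries (512 and 241) moved the counts little. Of the 145 genes, 66 kept the call in every setting. The block, either use of DESeq2, the stricter filter and the fit without both libraries numbered 1 lost none that were tested in them (144 under the stricter filter), while 48 were lost with 12 libraries and 70 without TNFα 2. The interaction called 0 genes with and without the replicate block, 5 by DESeq2's Wald test, and 0 to 1 in fits without 1 library, the 1 being TBC1D3I without untreated 2. HNF4A, which was not called, had a log2 change of 0.02 and turned to -0.060 without both libraries numbered 1; it ran from -0.087 to 0.12 without 1 library. Untreated TNF, LTB, ITGAM, GPRC5B and, in library 1, CXCL8 rest on a few counts, so no fold is given for them.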
